A study of Mus musculus with 14 samples.

Results

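The genes described here encode products of the gastric and intestinal mucosa: the gastrokines *Gkn1*, *Gkn2* and *Gkn3*, the trefoil factors *Tff1*, *Tff2* and *Tff3*, the transmembrane mucins *Muc13* and *Muc1*, and the actin-bundling protein *Vil1*. They were chosen by name, with earlier results of these data known, and all 9 were found among the 28022 genes of the count table. Their levels were followed across 14 RNA-seq libraries, 2 from each of 7 conditions, in cells that had been made to resemble liver.

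Gastrokines are small secreted proteins made by the mucous cells that line the stomach. Trefoil factors are short secreted peptides that are packed together with mucins and help a damaged mucosa to close; *Tff1* and *Tff2* belong to the stomach and *Tff3* to the goblet cells of the intestine. *Muc1* and *Muc13* anchor the glycan layer on the apical membrane of epithelial cells, and villin, the product of *Vil1*, bundles actin in the microvilli of the brush border. Hepatocytes, like these epithelia, arise from the endoderm.

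The starting cells were mouse embryonic fibroblasts (Fib). All cultured hepatic cells descended from fibroblasts that carried *Oct4* and *Hnf4α* in lentiviral SFFV vectors and had been converted into induced hepatic stem cells (iHepSCs). They were grown as a monolayer (2D-iHs, labelled 2D-iHepSC), as a monolayer together with induced endothelial cells (2D-iHEs, labelled 2D-iHepSCiEC), as spheroids in a hydrogel of Matrigel and type I collagen (iHLOs, labelled 3D-iHA), or as such spheroids in a hydrogel that also held the endothelial cells (iHEAs, labelled 3D-iHEA). The endothelial cells (iECs) came from the human fibroblast line HF1 after lentiviral *ETV2*, so 2D-iHEs and iHEAs held cells of both species while reads were aligned to the mouse genome alone. Adult-Liver came from young adult male mice and Fetal-Liver from mid-gestation fetuses, and the labels give C57BL/6J as the strain of every library. All 4 cultures were kept in the same medium. The labels do not say whether libraries of a condition came from separate cultures or animals, so p-values measure only the spread between these libraries.

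Total counts ranged from 20851489 to 35143325 per library, so that 3 counts, taken as the floor of a library, corresponded to 0.0854 to 0.144 CPM (the count divided by the library total, times 1000000). The hepatocyte list of 12 genes summed to 253474 to 264603 CPM in Adult-Liver and to 926 to 1485 CPM in the 8 culture libraries, where *Alb* had between 2 and 210 counts. The fibroblast list of 8 genes fell from at least 29334 CPM in Fib to at most 15.5 CPM in the cultures. The libraries of iHEA and of Fetal-Liver differed more within their condition (chi-square of 11.5 and 13.4 per gene) than those of the other conditions (3.05 to 3.67), and the second iHEA library is used without a number because its label is ambiguous. In bulk RNA, fewer cells of a type and less RNA per cell cannot be told apart.

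The gastrokine genes lie together within 43.3 kb of chromosome 6, and the trefoil genes within 40.0 kb of chromosome 17 (GRCm38, GENCODE). *Gkn1* spans chr6:87345650-87350942 on the minus strand, *Gkn2* chr6:87373357-87379497 on the plus strand and *Gkn3* chr6:87383256-87388935 on the minus strand. *Tff3* spans chr17:31125306-31129646, *Tff2* chr17:31141049-31144282 and *Tff1* chr17:31161395-31165277, all on the minus strand. *Muc13* lies at chr16:33794037-33819934, *Muc1* at chr3:89229057-89233381 and *Vil1* at chr1:74409376-74435559, all on the plus strand. All 9 are protein-coding. Exons of *Tff1* overlap the antisense gene *Gm15318* over 221 bases, exons of *Muc13* overlap the antisense gene *Gm15657* over 184 bases and exons of *Vil1* overlap *Usp37* of the other strand over 49 bases, and the use of strand in counting is not stated. *Usp37* itself had 850 to 1414 counts in the cultures and did not pass the test between 3D and 2D (log2 fold change -0.09, SE 0.05, adjusted p = 0.0919, edgeR).

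Promoter sequences were found for 6 of the 9 genes in RefSeq (GRCm38.p6). The 250 bases before the start of the 3 gastrokine genes are shown because these neighbours differed widely in level, and those of *Muc1* because it had the larger change of both member mucins. Capitals mark matches to short motifs, and bases are counted back from the RefSeq start at -1.
Gkn1 (chr6:87350916-87351165, minus strand): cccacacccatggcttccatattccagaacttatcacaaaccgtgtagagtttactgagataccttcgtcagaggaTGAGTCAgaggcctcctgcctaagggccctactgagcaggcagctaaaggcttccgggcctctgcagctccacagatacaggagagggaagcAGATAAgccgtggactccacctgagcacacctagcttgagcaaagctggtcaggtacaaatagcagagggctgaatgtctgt
Gkn2 (chr6:87373115-87373364, plus strand): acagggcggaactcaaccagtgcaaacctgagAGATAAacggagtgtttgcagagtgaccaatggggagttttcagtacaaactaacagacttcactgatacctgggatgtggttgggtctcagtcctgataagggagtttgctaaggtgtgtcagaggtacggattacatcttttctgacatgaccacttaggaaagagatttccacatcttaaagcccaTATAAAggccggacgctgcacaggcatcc
Gkn3 (chr6:87388936-87389185, minus strand): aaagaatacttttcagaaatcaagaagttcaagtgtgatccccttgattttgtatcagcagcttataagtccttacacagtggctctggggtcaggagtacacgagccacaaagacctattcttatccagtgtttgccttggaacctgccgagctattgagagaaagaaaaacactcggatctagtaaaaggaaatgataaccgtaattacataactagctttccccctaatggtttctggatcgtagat
Muc1 (chr3:89228806-89229055, plus strand): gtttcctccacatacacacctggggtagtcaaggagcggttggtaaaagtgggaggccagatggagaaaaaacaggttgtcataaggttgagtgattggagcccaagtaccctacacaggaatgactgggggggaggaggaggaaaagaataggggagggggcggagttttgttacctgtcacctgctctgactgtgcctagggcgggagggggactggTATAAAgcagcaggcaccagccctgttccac

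Searched on both strands were a TATA box (TATAAA, in 12.4% of 32851 promoter windows of this length), an octamer for Oct factors (ATGCAAAT, 1.6%), an HNF4 site (CAAAGTCCA, 0.384%), a short HNF1 site (GTTAAT, 6.43%), a forkhead site (TGTTTAC, 3.17%), a GATA site (AGATAA, 9.99%), an AP-1 site (TGACTCA, 4.46%) and a CDX site (TTTATG, 10.8%). The *Gkn1* window held a GATA match at -82 to -77 and an AP-1 match on the minus strand at -174 to -168. The *Gkn2* window held a TATA match at -29 to -24 and a GATA match at -218 to -213, and the *Muc1* window held a TATA match at -31 to -26. The windows of *Gkn3* and *Vil1* held none of these letters. The first start of *Muc13* had an AP-1 match at -61 to -55 and a CDX match at -180 to -175, and its second start had an HNF4 match at -186 to -178 that overlapped an AP-1 match at -179 to -173, and a short HNF1 match at -61 to -56. These matches describe letters in a window and not sites of binding.

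*Gkn1* was close to silent in monolayers and ranked 944 to 1802 by count among all genes in 3D. Monolayers of 2D-iHs gave 25 and 33 reads and those of 2D-iHEs 28 and 14, whereas organoids (iHLOs) gave 5893 and 5694 and assembloids (iHEAs) 4102 and 3069. Every 3D library lay above every 2D library, and no library of Fib, Adult-Liver or Fetal-Liver held a single *Gkn1* count. The mean level was 170 CPM ± 39.5 (SD, n = 4) in 3D against 0.839 CPM ± 0.201 (SD, n = 4) in 2D, a 203-fold ratio. The fitted log2 fold change was 7.62 (SE 0.24, adjusted p = 1.87e-10, edgeR).

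*Gkn2*, whose product is known to bind trefoil factor 1, had the highest mean CPM of the 9 genes in iHLOs and in iHEAs, although *Muc13* had more counts (5292) in the unnumbered iHEA library. Organoid libraries held 10064 and 9791 reads of it and assembloid libraries 7300 and 5095. In monolayers there were 192 and 213 without and 93 and 61 with endothelial cells. The groups did not overlap, and the ratio of mean CPM was 62.5 (log2 fold change 5.93, SE 0.28, adjusted p = 5.31e-09, edgeR). By number of counts *Gkn2* ranked 401 and 407 among all genes in the iHLO libraries and 657 and 872 in the iHEA libraries.

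*Gkn3*, whose product is known from mucous neck cells of the mouse stomach, stayed low. The iHLO libraries held 21 and 11 reads, the iHEA libraries 16 and 17, and the 4 monolayer libraries 0 to 3. These counts were under the filter of a mean log2(count + 1) of at least 3, so the test was made in a fit to which the members under the filter were added, where *Gkn3* was higher in 3D (log2 fold change 3.67, SE 0.50, adjusted p = 3.64e-05, edgeR). Its level per length in iHLOs was 2.35 TPM ± 0.995 (SD, n = 2) against 1589 TPM ± 1.02 for *Gkn2* and 585 TPM ± 2.46 for *Gkn1*.

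**Figure D1:**
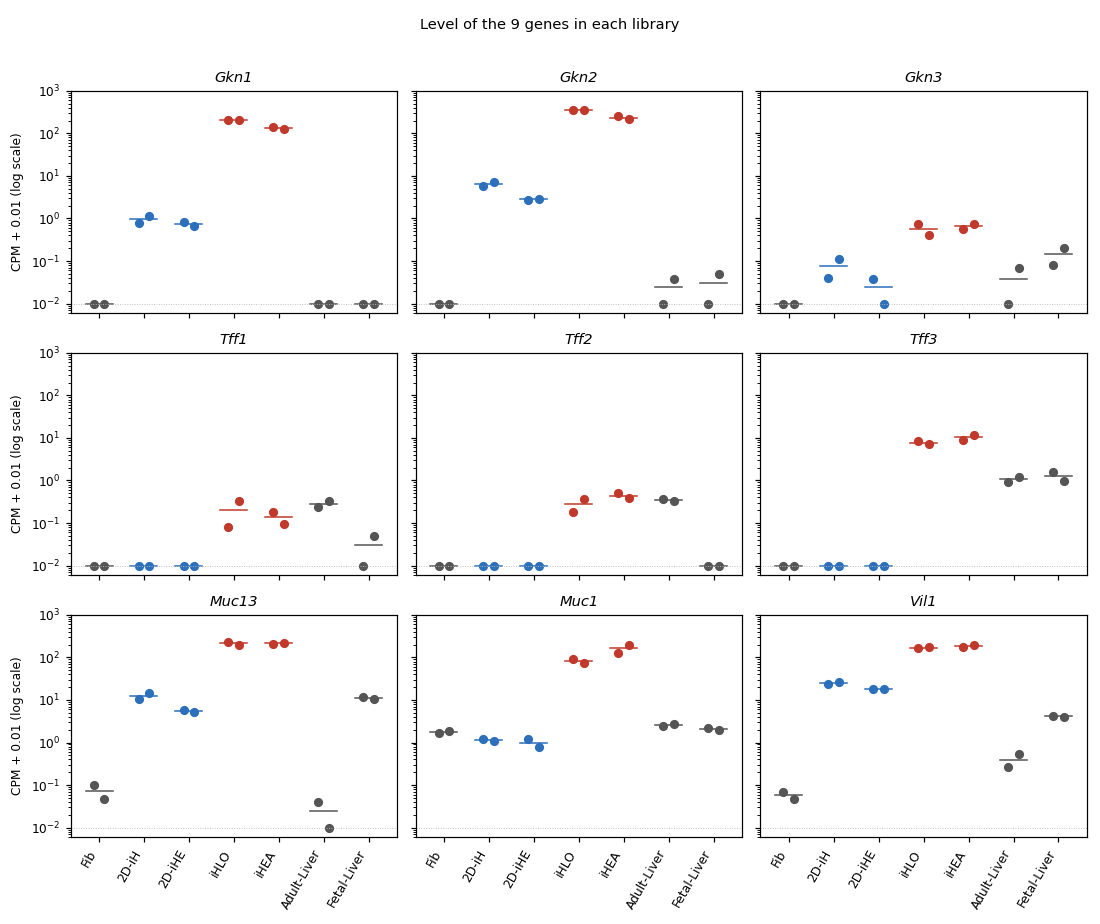
Level of each gene in each of the 14 libraries, as CPM + 0.01 on a log axis. Each point is 1 library, lines are the means of 2 libraries, red marks 3D cultures, blue 2D cultures and grey fibroblasts and livers, and the dotted line is 0 CPM. *Gkn1* is at 0 outside the cultures, *Tff3* is at 0 in Fib and in every 2D library, and *Muc13* in Fetal-Liver sits near its 2D-iH level.

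The balance between both main gastrokines was set out as a ratio. For each 100 *Gkn2* reads the 2D-iH libraries held 13.0 and 15.5 *Gkn1* reads and the 2D-iHE libraries 30.1 and 23.0. The iHLO libraries held 58.6 and 58.2, and the iHEA libraries 56.2 and 60.2. The mean was 20.4 ± 7.73 in 2D and 58.3 ± 1.66 in 3D (SD, n = 4), and no 2D library reached a 3D library. This ratio was chosen after the counts were seen and is given without a test, and the 2D values rest on 14 to 33 *Gkn1* reads per library.

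**Figure D2:**
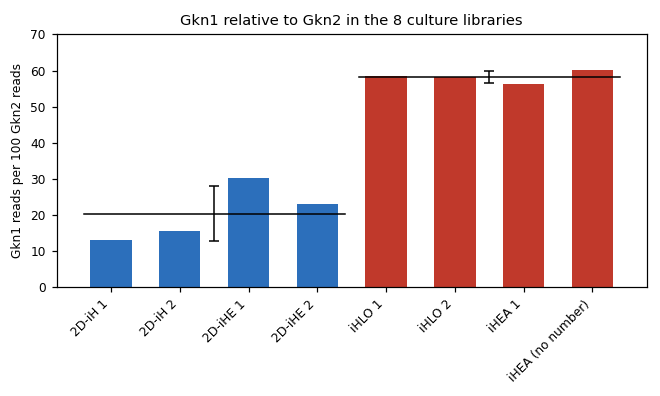
*Gkn1* reads per 100 *Gkn2* reads in each of the 8 culture libraries, with bars starting at 0. Black lines and error bars give the mean and SD of 4 libraries, 20.4 ± 7.73 in 2D and 58.3 ± 1.66 in 3D.

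Among the trefoil factors, *Tff3* was the one with substantial counts. No read was counted for *Tff3* in Fib, 2D-iHs or 2D-iHEs, while the iHLO libraries held 241 and 199 reads and the iHEA libraries 259 and 279. Against a floor of 3 counts per library, *Tff3* was at least 85.7-fold higher in 3D than in 2D. *Tff3* passed the filter on low counts only through its 3D libraries, which fixed the direction of its test, so its values are a description. Both livers expressed it at a lower level, with 31 and 42 counts in Adult-Liver and 45 and 24 in Fetal-Liver.

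*Tff1* and *Tff2* stayed near the limit of detection. For *Tff1* the iHLO libraries held 2 and 9 reads and the iHEA libraries 5 and 2. For *Tff2* these were 5 and 10, and 14 and 9. Neither had a read in the 6 libraries of Fib, 2D-iH and 2D-iHE. Against the floor of 3 counts per library, *Tff1* was at least 1.54-fold and *Tff2* at least 3.31-fold higher in 3D, with adjusted p = 0.00357 and 0.000209 when both were added to the fit (edgeR). Within single culture pairs, *Tff1* lost its call between iHLOs and 2D-iHs without the second iHLO library (adjusted p = 0.0803). Between iHEAs and 2D-iHEs it lost it without the first 2D-iHE library (adjusted p = 0.129), the second 2D-iHE library (0.0691) or the first iHEA library (0.0799), and with DESeq2 (0.0884).

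Both membrane mucins were high in 3D. *Muc13*, a membrane mucin of the gut epithelium, gave 345 and 431 reads in 2D-iHs and fewer, 202 and 107, in 2D-iHEs. The iHLO libraries held 6820 and 5395 and the iHEA libraries 5946 and 5292. The 3D mean of 215 CPM ± 18.9 (SD, n = 4) was 23.8 times the 2D mean of 9.03 CPM ± 4.51 (log2 fold change 4.53, SE 0.25, adjusted p = 1.6e-08, edgeR). *Muc1*, found on most glandular epithelia, had only 16 to 42 counts in the monolayers, below the 50 and 54 counts of Fib, against 2696 and 2086 in the iHLO and 3722 and 4617 in the iHEA libraries. Its ratio of mean CPM between 3D and 2D was 116 (log2 fold change 6.79, SE 0.37, adjusted p = 1.48e-08, edgeR), and the groups did not overlap.

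*Vil1* had the highest counts of the members in monolayers. Those of 2D-iHs gave 793 and 760 reads and those of 2D-iHEs 635 and 375. The iHLO libraries held 4808 and 4899 and the iHEA libraries 5080 and 4740. Its level was 171 CPM ± 5.83 in iHLOs and 188 CPM ± 15.7 in iHEAs (SD, n = 2), and the 3D mean of 180 CPM was 8.34 times the 2D mean of 21.5 CPM (n = 4 libraries each, log2 fold change 3.03, SE 0.12, adjusted p = 9.67e-10, edgeR), the smallest ratio among the 6 members that passed the filter.

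Between 3D and 2D, 75.9% of 13409 tested genes passed the test, 38.7% being higher and 37.2% lower in 3D. *Gkn1*, *Gkn2*, *Muc13*, *Muc1* and *Vil1*, the 5 members that passed the filter in the 2D libraries alone, were among the higher ones. As the members were chosen with earlier results known, nothing is read from their count against these shares. The same 5 were higher in iHLOs than in 2D-iHs, where 72.3% of genes were called, 36.9% higher and 35.3% lower. They were also higher in iHEAs than in 2D-iHEs, where 70.9% were called, 36% higher and 34.9% lower. Ratios of mean CPM in these comparisons ranged from 6.82 for *Vil1* to 216 for *Gkn1* in iHLOs, and from 10.5 for *Vil1* to 186 for *Gkn1* in iHEAs. The pooled comparison and the comparisons by pair share their libraries.

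**Figure D3:**
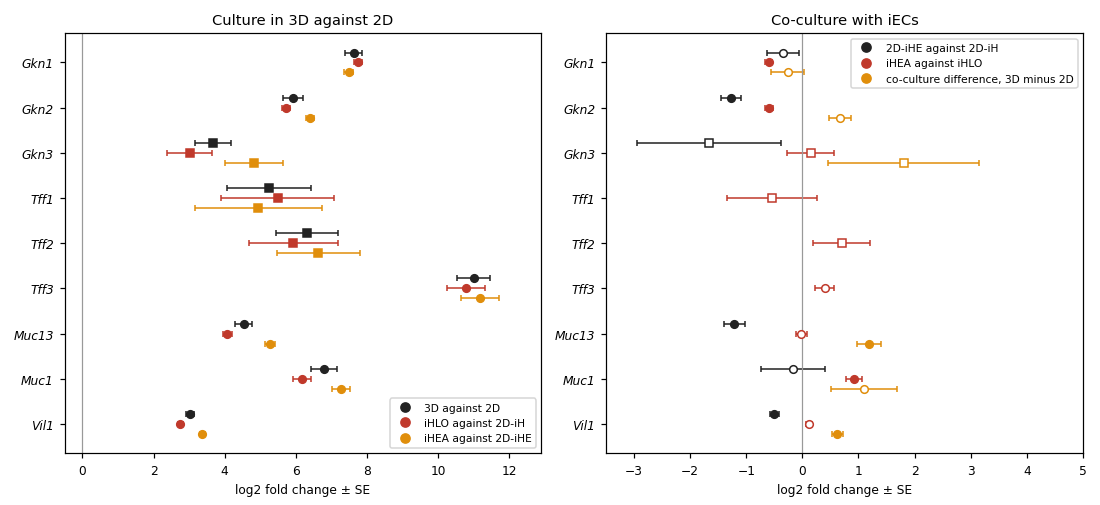
Fitted log2 fold change ± SE of the 9 genes for 3D against 2D (left) and for co-culture with iECs (right). Circles passed the filter on low counts, squares were added to the fit, filled marks passed an adjusted p of 0.05, and missing marks are genes with no counts in the groups. In the left panel the position of *Tff1*, *Tff2* and *Tff3* depends on the prior count, because their 2D libraries are all at 0, and in the right panel *Gkn1* and *Gkn2* lie below 0 and *Muc1* above 0 for iHEA against iHLO.

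Within 3D, *Gkn1* and *Gkn2* were lower and *Muc1* was higher with endothelial cells. Between iHEAs and iHLOs 2.26% of genes passed the test, 1.19% being higher and 1.07% lower, and *Gkn1* and *Gkn2* were among those that were lower. *Gkn1* went from 204 CPM ± 0.691 in iHLOs to 136 CPM ± 9.92 in iHEAs (SD, n = 2, log2 fold change -0.60, SE 0.06, adjusted p = 0.000324, edgeR), and *Gkn2* from 349 CPM ± 0.508 to 235 CPM ± 28.6 (log2 fold change -0.59, SE 0.08, adjusted p = 0.00122). *Muc1* was higher in iHEAs, at 162 CPM ± 45.5 against 84.0 CPM ± 13.4 (log2 fold change 0.92, SE 0.15, adjusted p = 0.00585). *Tff3* (0.40, SE 0.17, adjusted p = 0.356), *Vil1* (0.12, SE 0.06, adjusted p = 0.446) and *Muc13* (-0.02, SE 0.10, adjusted p = 0.973) did not pass the test. Nor did the members added to the fit, *Gkn3* (0.15, adjusted p = 0.945), *Tff1* (-0.55, adjusted p = 0.874) and *Tff2* (0.70, adjusted p = 0.672).

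The log2 fold changes of *Gkn1* and *Gkn2* were -0.53 and -0.47 without the unnumbered iHEA library and -0.68 and -0.73 without the first. Each of these fits held 1 iHEA library, so its spread came from the other conditions. For *Muc1* both iHEA libraries lay above both iHLO libraries, but its log2 fold change was 0.61 without the unnumbered iHEA library and 1.19 without the first, and its call was lost without the second iHLO library (0.77, adjusted p = 0.0975) and with DESeq2 (0.93, adjusted p = 0.068). *Vil1* was called without the first iHEA library (0.20, adjusted p = 0.0443). The endothelial list of 7 genes, read as mouse transcripts, summed to 1399 to 1568 CPM in iHLOs and to 1037 to 1098 CPM in iHEAs, so it moved with the gastrokines. *Kdr* and *Emcn*, 2 defining genes of that list, were under the filter in the cultures. The part of this list, or of human reads, in the result was not tested.

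In monolayers, endothelial co-culture went with lower levels of 3 members. Between 2D-iHEs and 2D-iHs 8.17% of genes passed the test, 4.26% being higher and 3.92% lower. *Gkn2* stood at 2.79 CPM ± 0.197 in 2D-iHEs and 6.56 CPM ± 1.05 in 2D-iHs (SD, n = 2, log2 fold change -1.27, SE 0.18, adjusted p = 0.00093, edgeR), *Muc13* at 5.44 CPM ± 0.436 and 12.6 CPM ± 3.05 (-1.21, SE 0.19, adjusted p = 0.00176), and *Vil1* at 18.0 CPM ± 0.0598 and 25.0 CPM ± 1.42 (-0.50, SE 0.08, adjusted p = 0.0022). *Gkn1* (-0.34, SE 0.28, adjusted p = 0.543) and *Muc1* (-0.17, SE 0.57, adjusted p = 0.906) did not pass the test, and their libraries overlapped between the groups. *Gkn3*, at 0 to 3 counts, did not pass it either (-1.66, SE 1.28, adjusted p = 0.504), and the trefoil factors had no reads here. Each of the 3 calls held when any 1 of the 4 libraries was left out. Of 5 tested fibroblast genes 1 was higher, *Col1a1*, with 93 and 93 against 441 and 234 counts, and the summed level of the list, most of it from *Col1a1*, was 5.33 to 5.93 CPM in 2D-iHs and 13.7 to 15.5 CPM in 2D-iHEs. Of 5 tested endothelial genes 3 were lower and none higher, with a summed level of 524 to 528 CPM in 2D-iHs and 473 to 477 CPM in 2D-iHEs. Of 6 tested hepatocyte genes 3 were lower and none higher, with 991 to 997 CPM and 926 to 939 CPM. The part of these cell types in the result was not tested.

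Whether co-culture went with another change in 3D than in 2D was tested as the difference of the log2 fold changes, 3D minus 2D. It passed the test for 3.14% of genes, 1.52% being higher and 1.62% lower. It was 1.19 (SE 0.21, adjusted p = 0.00985, edgeR) for *Muc13* and 0.62 (SE 0.10, adjusted p = 0.00512) for *Vil1*, both lower in 2D-iHEs than in 2D-iHs and without a call between iHEAs and iHLOs. *Gkn2* (0.68, SE 0.19, adjusted p = 0.0926), *Muc1* (1.09, SE 0.59, adjusted p = 0.42) *Gkn1* (-0.26, SE 0.30, adjusted p = 0.753) and *Gkn3* (1.80, SE 1.35, adjusted p = 0.594) did not pass it. *Vil1* kept its call without any 1 library, while *Muc13* lost it without the first 2D-iHE library (1.31, adjusted p = 0.0821) or the second (1.14, adjusted p = 0.0759). *Gkn2* gained a call without the first iHEA library (0.54, adjusted p = 0.0302), without the unnumbered one (0.80, adjusted p = 0.00167) and with DESeq2 (0.68, adjusted p = 0.00573), and *Muc1* without the first iHEA library (1.35, adjusted p = 0.0182).

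*Vil1*, *Muc13*, *Gkn1* and *Gkn2* were already counted in 2D-iHs and had at most 3 counts per library in Fib. They passed the filter through the other conditions, so their values against Fib are given as a description without a test, beside 83.9% of genes called, 45.7% being higher and 38.2% lower. *Vil1* had 1 and 2 counts in Fib, a ratio of 505 with an exact 95% interval of 172 to 2452, and *Muc13* had 1 and 3 counts in Fib, a ratio of mean CPM of 199. *Gkn1* was at least 9.47-fold and *Gkn2* at least 65.8-fold higher in 2D-iHs than in Fib, both being at 0 in Fib. *Muc1* was not among them: its 31 and 40 counts in 2D-iHs lay below the 50 and 54 of Fib (log2 fold change -0.60, SE 0.41, adjusted p = 0.188, edgeR), a difference that was called with DESeq2 (-0.70, adjusted p = 0.0137), without a filter (-0.53, adjusted p = 0.0311) and in a fit of these 4 libraries alone (-0.67, adjusted p = 0.00862). *Gkn3*, with 1 and 3 counts in 2D-iHs and 0 in Fib, was called without the first 2D-iH library (adjusted p = 0.0457) and in the fit of these 4 libraries (adjusted p = 0.0367) but not otherwise.

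*Gkn1*, *Gkn2*, *Tff3*, *Muc13*, *Muc1* and *Vil1* were higher in iHLOs than in Adult-Liver and than in Fetal-Liver, with 84.9% (45.7% higher, 39.2% lower) and 85.6% (42.4% higher, 43.2% lower) of 14121 genes called. *Gkn1* and *Gkn2* had at most 1 count in any liver library and passed the filter through the cultures, which fixed the direction of their tests. The same held for *Muc13* against Adult-Liver, as it passed the filter through the other conditions. *Tff3* passed the filter over all 14 libraries only through the 3D libraries, iHLOs among them, so its values against both livers are a description. *Gkn1* was at least 2356-fold higher than in Adult-Liver and at least 1829-fold higher than in Fetal-Liver. *Gkn2* had a ratio of 24225 to Adult-Liver (exact 95% interval 4347 to 956879) and of 18877 to Fetal-Liver (3388 to 745654). *Muc13* had 1 and 0 counts in Adult-Liver, a ratio of 14903 with an exact 95% interval of 2674 to 588700. *Vil1*, with 9 and 18 counts in Adult-Liver, had a ratio of mean CPM of 440, *Muc1* one of 32.2 and *Tff3* one of 7.36. With TMM, which was used for the calls, the log2 fold changes against Adult-Liver were smaller than with total counts, at 7.29 against 8.72 for *Vil1*, 3.53 against 4.96 for *Muc1* and 1.40 against 2.83 for *Tff3*. Against Fetal-Liver the ratios of mean CPM were 19.3 for *Muc13*, 41.8 for *Vil1*, 40.6 for *Muc1* and 6.15 for *Tff3*.

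For *Tff1* and *Tff2* the libraries of Adult-Liver and iHLO overlapped. Adult-Liver had 8 and 11 *Tff1* counts and 12 and 11 *Tff2* counts, and the CPM of iHLOs was 0.714 times (*Tff1*) and 0.799 times (*Tff2*) that of Adult-Liver. With TMM both were called lower in iHLOs (log2 fold change -1.95 and -1.79, adjusted p = 0.0107 and 0.00385, edgeR), and with total counts alone neither was (-0.54 and -0.37, adjusted p = 0.426 and 0.463), nor with DESeq2 (adjusted p = 0.12 and 0.0694). *Alb* alone gave 8113083 and 7888792 counts in Adult-Liver, and with total counts the median log2 fold change of all genes between iHLOs and Adult-Liver moved to 1.56. *Gkn3* was called higher in iHLOs than in Adult-Liver (log2 fold change 2.73, adjusted p = 0.00936) and lost the call without the first Adult-Liver library (1.72, adjusted p = 0.108) without the first iHLO library (2.23, adjusted p = 0.0528) and with DESeq2 (2.67, adjusted p = 0.0702). *Tff1* was also not called without the first iHLO library (adjusted p = 0.0672) or the second Adult-Liver library (0.0712).

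Against Fetal-Liver the 3 members added to the fit were called higher in iHLOs. *Gkn3* was higher by 2.05 on the log2 scale (adjusted p = 0.00589, edgeR). *Tff1*, with 0 to 1 count in Fetal-Liver, had a ratio of 10.5 with an exact 95% interval of 1.52 to 450.2 (adjusted p = 0.0253). *Tff2*, at 0 in Fetal-Liver, was at least 2.38-fold higher (adjusted p = 0.000971). *Gkn3* lost the call with DESeq2 (adjusted p = 0.0788), without the first iHLO library (0.0688) and without the first Fetal-Liver library (0.0642). *Tff1* lost it with DESeq2 (adjusted p = 0.0929), in the fit of these 4 libraries (0.0641), without the second iHLO library (0.299) and without the first Fetal-Liver library (0.135).

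Both livers differed in 4 of the 6 members tested, with 83.7% of all genes called, 40% higher and 43.8% lower in Adult-Liver. *Muc13* had 344 and 261 counts in Fetal-Liver and 1 and 0 in Adult-Liver, a ratio of 0.00129 for adult over fetal with an exact 95% interval of 3.26e-05 to 0.0072. It was 1 of these 4, but it passed the filter through conditions other than Adult-Liver. This fixed the direction of its test, so its values are a description. *Vil1* had 118 and 103 counts in Fetal-Liver against 9 and 18 in Adult-Liver (log2 fold change -1.94 for adult against fetal, SE 0.24, adjusted p = 1.39e-06, edgeR). With total counts the *Vil1* value was -3.35, the median of all genes moving to -1.52. *Muc1* was higher in Adult-Liver with TMM (1.78, SE 0.33, adjusted p = 0.000127) but not called with total counts (0.36, adjusted p = 0.325). For *Tff3* the direction itself depended on scaling, with 1.17 (SE 0.32, adjusted p = 0.00429) under TMM and -0.24 (adjusted p = 0.474) with total counts, and its CPM overlapped between both livers. *Gkn1* had no counts in either, *Gkn2* (0.92, adjusted p = 0.693) and *Gkn3* (-0.69, adjusted p = 0.594) did not pass the test. *Tff1* and *Tff2*, added to the fit, were called higher in Adult-Liver (adjusted p = 0.000338 and 2.34e-05, edgeR). The *Tff1* ratio was 14.8 with an exact 95% interval of 2.35 to 615, and *Tff2*, at 0 in Fetal-Liver, was at least 2.98-fold higher.

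Placed in order of CPM, *Gkn1* and *Gkn2* were highest in iHLOs, then in iHEAs, then in 2D-iHs and 2D-iHEs, and for *Gkn1* both monolayer conditions did not differ beyond their spread. *Muc13*, *Muc1*, *Vil1* and *Tff3* had their highest mean in iHEAs, but for each of these the step from iHEAs to iHLOs did not exceed the spread of libraries within a condition. Below them *Muc13* did not differ between 2D-iHs (12.6 CPM) and Fetal-Liver (11.1 CPM), and *Muc1* came next in Adult-Liver (2.61 CPM), Fetal-Liver (2.07 CPM) and Fib (1.72 CPM) before the monolayers. *Tff1*, *Tff2* and *Gkn3* had no step beyond the spread between any adjacent conditions.

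Per length, *Gkn2* led in both 3D conditions with 1589 TPM in iHLOs and 1073 TPM in iHEAs, and *Gkn1* followed with 585 and 393 TPM. *Muc13* (253 and 256 TPM), *Vil1* (172 and 192 TPM) and *Muc1* (128 and 250 TPM) formed a middle group, and *Tff3* stood at 56.2 and 76.2 TPM. In 2D-iHs the same scale gave 30.5 TPM for *Gkn2*, 25.9 TPM for *Vil1*, 15.2 TPM for *Muc13*, 2.77 TPM for *Gkn1* and 1.78 TPM for *Muc1*.

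Likeness to other genes was read across the 14 libraries, which share 7 conditions, so the correlations are a description. For this the CPM were scaled with TMM factors, unlike the CPM elsewhere. The highest Pearson correlations of log2 CPM with *Gkn1* among 14121 genes were those of *Ptprh* (0.995), a receptor tyrosine phosphatase of the gut, *Malrd1* (0.993) and *G430049J08Rik* (0.992). For *Gkn2* they were *G430049J08Rik* (0.996), *Psca* (0.995), which encodes a surface antigen of the gastric epithelium, and *Fam3b* (0.993). *Ptprh* had 14 to 26 counts in the monolayers and 1301 to 1405 in 3D. *Psca* had 12 to 31 counts in the monolayers and 703, 534, 334 and 297 in the iHLO and iHEA libraries, lower in iHEAs (log2 fold change -0.87, SE 0.12, adjusted p = 0.00272, edgeR), a call that was lost without the first iHLO library (-0.68, adjusted p = 0.05). *Fam3b* did not share this, with 42.3 and 40.0 CPM in iHLOs and 47.0 and 59.4 CPM in iHEAs.

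The nearest genes to *Tff3* were *Tek* (0.982), *Fbp2* (0.98) and *Tmprss4* (0.976), those to *Muc1* were *Mmp7* (0.987), *Cyp2d12* (0.983) and *Zkscan14* (0.978). *Mmp7*, which encodes matrilysin, a protease of glandular epithelia, had at most 1 count in Fib and in each monolayer library and 1431 to 2617 counts in 3D. *Muc13* was followed by *Spata2* (0.994) and *Btg2* (0.987), and *Vil1* by *Ano9* (0.991), *Hsdl1* (0.99) and *Casz1* (0.989). *Casz1* had 194 to 408 counts in the monolayers and 2437 to 2777 in 3D. With CPM scaled by total counts alone, an alternative added after seeing the data, the correlation of *Muc13* was 0.896 with *Spata2* and 0.958 with *Btg2*, which then ranked 415 and 57 among all genes. That of *Muc1* with *Zkscan14* was 0.845 (rank 190) and that of *Vil1* with *Hsdl1* 0.912 (rank 426). The other genes named here ranked 1 to 7 on that scale.

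The clusters were set against the 5 protein-coding genes on each side. Around the gastrokines 7 of 10 neighbours were tested between 3D and 2D, of which 2 were higher, 2 lower and 3 not called, beside 38.7% higher and 37.2% lower over all tested genes. The nearest on one side, *Antxr1*, whose midpoint lies at -132.5 kb from the centre of the cluster, had a log2 fold change of -0.25 (SE 0.13, adjusted p = 0.0951, edgeR), and the nearest on the other, *Bmp10*, had at most 2 counts in any culture library. *Prokr1*, a prokineticin receptor, was the neighbour with the largest rise (1.58, SE 0.33, adjusted p = 0.0011), from 6 to 11 counts in 2D to 11 to 34 in 3D.

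Around the trefoil factors 5 of 10 neighbours were tested, 3 being higher, 1 lower and 1 not called, so that 4 of 5 were called where 75.9% of all tested genes were. *Abcg1*, *Tmprss3* and *Ubash3a*, the nearest on either side, had at most 11 counts in any culture library. Farther out, *Slc37a1*, a sugar phosphate exchanger, had 348 to 548 counts in 2D and 3130 to 3467 in 3D (log2 fold change 2.84, SE 0.08, adjusted p = 7.57e-11, edgeR). *Pde9a*, a cyclic GMP phosphodiesterase, was also higher (2.34, SE 0.15, adjusted p = 7.88e-08). The median over the tested neighbours was -0.09 for the gastrokine cluster and 1.16 for the trefoil cluster, against 0.01 over all tested genes.

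**Figure D4:**
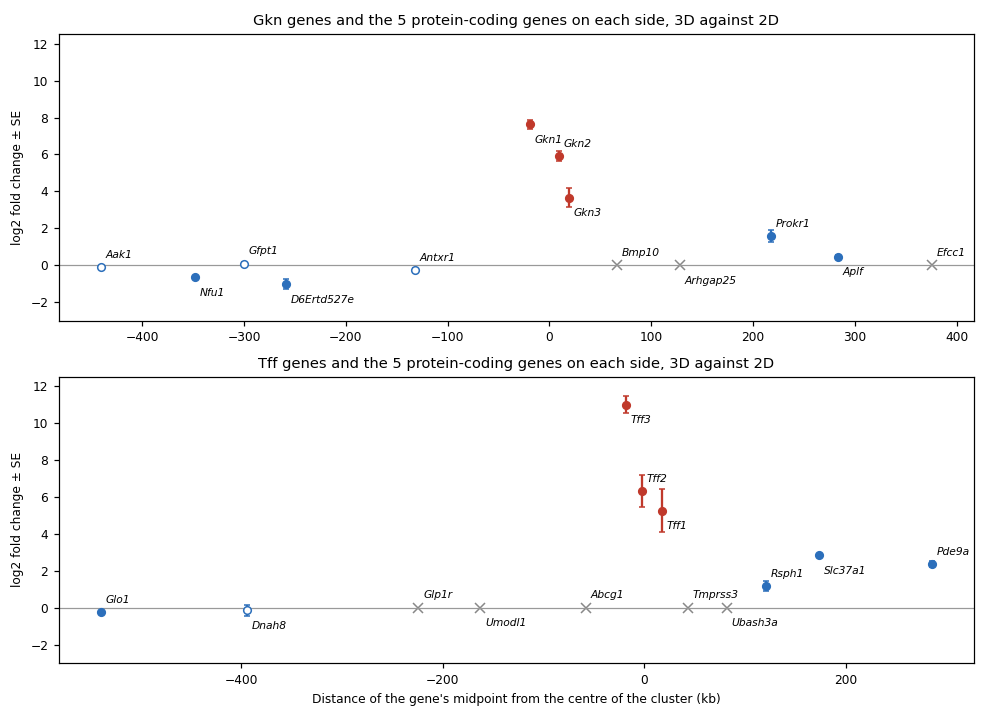
Fitted log2 fold change ± SE between 3D and 2D of the gastrokine genes (top), the trefoil genes (bottom) and their 5 protein-coding neighbours on each side, by distance of the gene's midpoint from the centre of the cluster in kb. Red marks members, blue neighbours, filled marks passed an adjusted p of 0.05, and crosses are neighbours under the filter on low counts, drawn at 0. *Gkn3*, *Tff1* and *Tff2*, also under the filter, are drawn at their values in the fit to which they were added. The heights of *Tff1*, *Tff2* and *Tff3* depend on the prior count, because their 2D libraries are all at 0. *Gkn1* and *Gkn2* stand above all their neighbours, while *Slc37a1* and *Pde9a* near the trefoil genes are also above 0.

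Of 9 genes of gastric surface mucous cells 8 were tested, and of the 7 that passed the filter in the 2D libraries alone 6 were higher in 3D and none lower, with a median log2 fold change of 4.40. Over all tested genes 38.7% were higher and 37.2% lower, with a median of 0.01. Here and for the lists below, these shares include genes that passed the filter only through 3D. They are therefore not of the same kind as counts over genes passing in 2D alone. As the lists were chosen with earlier results known, nothing is read from their counts or medians against these shares. *Sult1c2* (5.93, SE 0.10, adjusted p = 5.19e-12, edgeR), *Mucl3* (5.19, SE 0.20, adjusted p = 8.2e-10) and the protease *Ctse* (4.72, SE 0.17, adjusted p = 6.45e-10) were among them. The gel-forming gastric mucin *Muc5ac* had 2 to 4 counts in 2D and 39 to 199 in 3D. It passed the filter only through the 3D libraries, which fixed the direction of its test, and with it 7 of 8 were higher and the median was 4.56. *Cldn18*, a claudin of the stomach and lung, had the highest counts of the list, with 8362 to 14118 in 2D and 9427 to 11795 in 3D, and did not pass the test (-0.02, SE 0.04, adjusted p = 0.641).

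Of 12 genes of the gastric glands 7 were tested, and of the 4 that passed the filter in the 2D libraries alone 3 were higher and none lower, with a median of 2.16, beside 38.7% higher and 37.2% lower over all tested genes. *Pgc*, which encodes pepsinogen C, had 0 to 5 counts in the monolayers and 3542, 3997, 3844 and 2446 in the iHLO and iHEA libraries. The pepsinogen gene *Pga5* had 0 to 4 counts in 2D and 163 to 382 in 3D. The proton pump subunit *Atp4a* (log2 fold change 3.57, SE 0.36, adjusted p = 3.2e-06, edgeR) and the mucin *Muc6* (2.40, SE 0.21, adjusted p = 1.05e-06) were higher. *Atp4a* had 136 to 408 counts in 3D and 108 to 113 in Adult-Liver. *Muc6* reached 49 to 76 counts in 3D and 519 and 798 in Fetal-Liver. *Ghrl* was not called. Under the filter were *Atp4b* (0 to 8 counts in 3D), *Chia1* (0 to 2), *Lipf* and *Gast* (0 to 1 each) and *Cblif* (0 to 253). *Pgc*, *Pga5* and *Bhlha15* passed the filter only through the 3D libraries, which fixed the direction of their tests, and with them 6 of 7 were higher and the median was 2.40.

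Of 11 genes of intestinal goblet cells 5 were tested, and of the 3 that passed the filter in the 2D libraries alone 1 was higher, 1 lower and 1 not called, with a median of -0.72, beside 38.7% higher and 37.2% lower over all tested genes. *Agr2*, a disulfide isomerase needed for mucin folding, had 3 counts over the 4 monolayer libraries and 332 to 613 in each 3D library, a ratio of 635 with an exact 95% interval of 217 to 3081. *Spdef*, a transcription factor of goblet cells, had 0 to 3 counts in 2D and 102 to 190 in 3D. *Galnt12* was higher by 1.51 on the log2 scale (SE 0.06, adjusted p = 7.13e-10, edgeR). *Clca1* moved the other way, from 331 to 684 counts in 2D to 115 to 172 in 3D (-1.69, SE 0.16, adjusted p = 2.09e-06), and *Muc2*, the gel-forming mucin of the intestine, was not called (-0.72, SE 0.31, adjusted p = 0.052). *Agr2* and *Spdef* passed the filter only through the 3D libraries, which fixed the direction of their tests, and with them 3 of 5 were higher and the sign of the median turned, to 1.51.

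Of 22 brush border and enterocyte genes 18 were tested, and of the 14 that passed the filter in the 2D libraries alone 10 were higher and 2 lower, with a median of 0.63, beside 38.7% higher and 37.2% lower over all tested genes. The brush border myosin *Myo1a* went from 33 to 76 counts in 2D to 2683 to 3395 in 3D (log2 fold change 5.81, SE 0.17, adjusted p = 1.24e-10, edgeR). The aminopeptidase *Anpep* had 0 to 5 counts in 2D and 82 to 155 in 3D, the scaffold *Ush1c* 2 to 5 and 74 to 115, and the metalloprotease *Mep1a* 0 to 3 and 19 to 38. *Lgals4*, a lectin of the gut epithelium, had the highest counts, with 10491 to 25400 in 2D and 54633 to 66016 in 3D. *Anpep* had 3597 and 3908 counts in Adult-Liver and 2555 to 2959 in Fib, far above the 82 to 155 of the 3D cultures. The lower genes were *Myo7b*, with mean levels of 277 CPM in 2D and 203 CPM in 3D, and *Eps8*, with 332 and 297 CPM. *Ezr* and *Espn* were not called. *Alpi*, *Lct*, *Slc5a1* and *Treh* were under the filter, with at most 24 counts in any culture library. *Anpep*, *Ush1c*, *Mep1a* and *Fabp2* passed the filter only through the 3D libraries, which fixed the direction of their tests, and with them 14 of 18 were higher and the median was 1.31. Between 2D-iHEs and 2D-iHs 8 of the 18 were lower and none higher, beside 3.92% lower and 4.26% higher over all tested genes.

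Of 8 other mucins only *Muc3* and *Muc4* were tested, and both were higher in 3D, beside 38.7% higher and 37.2% lower over all tested genes. *Muc3* was higher by 8.32 (SE 0.19, adjusted p = 2.13e-11, edgeR) and *Muc4* by 6.85 (SE 0.38, adjusted p = 1.68e-08). *Muc3*, a membrane mucin of the intestine, had 3 to 17 counts in 2D and 2565 to 4058 in 3D. The table holds a separate entry *Muc3a* with 1 to 2 counts in 2D and 109 to 207 in 3D, and how reads shared by both were counted is not stated. *Muc5b*, *Muc15*, *Muc16*, *Muc19*, *Muc20* and *Mucl1* were under the filter. *Muc15* had 3 to 13 counts in 2D and 0 to 1 in 3D, and *Muc19* 0 to 3 in 2D and 0 in 3D. *Muc20* went the other way, with 0 to 1 and 2 to 11, and *Muc5b*, *Muc16* and *Mucl1* had at most 5 counts in any culture library.

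Of 14 enzymes of mucin O-glycosylation 10 were tested and 9 were higher and none lower, with a median of 0.95, beside 38.7% higher and 37.2% lower over all tested genes. The fucosyltransferase *Fut2* rose most (3.38, SE 0.11, adjusted p = 2.45e-10, edgeR), from 254 to 588 counts in 2D to 4304 to 4893 in 3D. *Galnt4* (1.80, SE 0.09, adjusted p = 5.24e-09), *St3gal4* (1.44, SE 0.04, adjusted p = 1.36e-10) and *Galnt7* (1.37, SE 0.06, adjusted p = 3.13e-09) were next. All 5 genes of the list of binding partners and receptors were tested, and of the 3 that passed the filter in the 2D libraries alone 1 was higher and 2 lower. *Dmbt1*, a secreted scavenger protein that binds trefoil factors, had 224 to 671 counts in 2D and 45565 to 66003 in 3D (6.99, SE 0.23, adjusted p = 2.82e-10). *Ackr3* (-2.42, SE 0.08, adjusted p = 2.05e-10) was lower. The chemokine receptor *Cxcr4* had 0 to 6 counts in 2D and 48 to 94 in 3D, and *Lingo2* 2 to 5 and 19 to 39. Both passed the filter only through the 3D libraries, which fixed the direction of their tests.

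**Figure D5:**
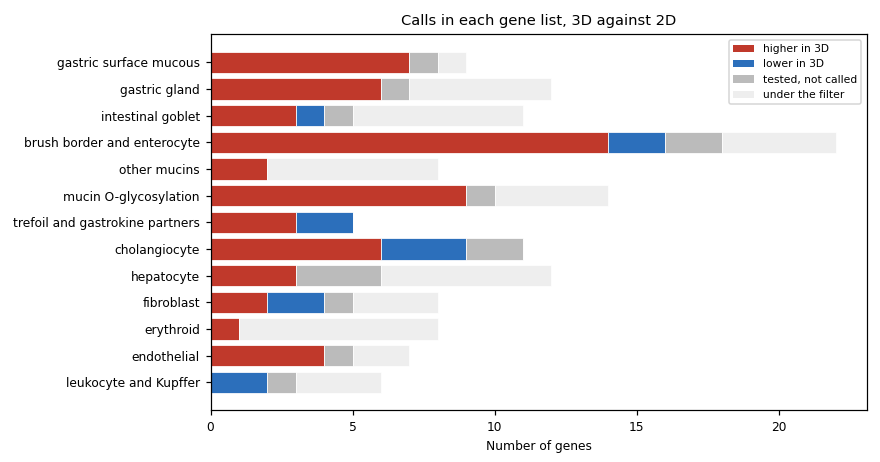
Number of genes in each list that were higher in 3D, lower in 3D, tested without a call, or under the filter on low counts, for 3D against 2D. Of the gastric surface mucous genes 7 of 9 were higher and none lower, and of the 11 cholangiocyte genes 6 were higher and 3 lower. Counts include genes that passed the filter only through the 3D libraries.

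Markers of other cell types were read in the same way, beside 38.7% higher and 37.2% lower over all tested genes. Of the 11 cholangiocyte genes 6 were higher in 3D, 3 lower and 2 not called, with a median of 0.38, and their summed level went from 1324 to 1555 CPM in 2D to 1581 to 1990 CPM in 3D. Of 6 tested hepatocyte genes 3 were higher and none lower in the pooled comparison, but 2 were lower between iHLOs and 2D-iHs and 1 between iHEAs and 2D-iHEs. In the pooled comparison 2 of 10 tested were lower in the fit of all 14 libraries, and 1 of 12 without a filter. The endothelial list had 4 of 5 tested genes higher in 3D, and also 4 of 5 between iHLOs and 2D-iHs, which received no endothelial cells, and its summed level went from 473 to 528 CPM in 2D to 1037 to 1568 CPM in 3D. Of 5 tested fibroblast genes 2 were higher and 2 lower, and of 3 tested leukocyte genes 2 were lower and none higher. *Sctr* (cholangiocyte), the tyrosine aminotransferase gene (hepatocyte), *Pecam1* (endothelial) and *Pdgfrb* (fibroblast) passed the filter only through the 3D libraries, which fixed the direction of their tests. Without them 5 of 10 cholangiocyte, 2 of 5 hepatocyte, 3 of 4 endothelial and 1 of 4 fibroblast genes were higher, and the cholangiocyte median was 0.31. The erythroid list stayed at or below 1.26 CPM in every culture library against at least 38978 CPM in Fetal-Liver. Whether these cell types have a part in the levels of the mucosal genes was not tested.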

How the data were processed

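RNA-seq libraries were made from total RNA and sequenced as paired-end reads. According to the methods and the submitters' processing notes, the authors trimmed reads with Trimmomatic 0.36, aligned them with HISAT2 to GRCm38, annotated them with Cufflinks and counted them per gene with HTSeq, the other versions, the annotation release and the use of strand not being given in the sources used here. The deposited values are raw counts per gene for 28022 gene symbols in 14 libraries, and the log2 transformation of the methods is not in them. No column was left unused.

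Conditions were taken from the labels. The column of the second iHEA library carries a number that also belongs to the first, so it was used without a number. From the counts, CPM were computed as the count divided by the deposited total of the library, times 1000000, and TPM from exon lengths of 27687 genes (98.8%) with a single position in GENCODE of GRCm38. Counts were tested with edgeR 4.0.16 (R 4.3.3): TMM, genes kept where log2(count + 1) averaged 3 or more in the libraries fitted, glmQLFit and glmQLFTest, and Benjamini-Hochberg adjustment over all tested genes. A gene was called at an adjusted p under 0.05, and SE is the log2 fold change divided by the root of F. 3D was compared with 2D over 8 culture libraries, the other culture comparisons came from a fit with 1 term for each of 4 conditions, and comparisons with Fib or liver from a fit of all 14. *Gkn3*, *Tff1* and *Tff2* did not pass the filter and were tested in fits to which they were added. Folds against a group at 0 are bounds against 3 counts per library, and against 1 to 3 counts ratios with an exact 95% interval. Intervals and floors cover counting error only. Replicate numbers were checked for pairing: in 15 pairs of conditions the correlation of their deviations was -0.0704 to 0.0482, so numbers were not used as a block. The code was tested on simulated data. Alternatives were DESeq2 1.42.0, other scalings, no filter, members added, a replicate block, other sets of libraries and each library left out. Outside the pooled comparison, leaving out a library left its condition with 1 library, so the spread in those fits came from the other conditions. Added after seeing the data were correlations on total-count CPM, and list counts over genes passing the filter in 2D alone.

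The rule for named genes was all 9 members and, from each mucosal list, up to 4 called genes with the largest absolute log2 fold change in 3D against 2D and the gene with the highest 3D count, together with the 3 genes nearest to each tested member by Pearson correlation of TMM-scaled log2 CPM (prior count 2), of which 1 is not reported here, and the 5 protein-coding neighbours of each cluster. Cell type lists are given as counts and summed levels. Members and lists were chosen with earlier results of these data known. *Usp37*, *Muc3a*, *Cblif*, *Col1a1*, *Alb*, *Kdr*, *Emcn*, *Bhlha15*, *Fabp2*, *Muc2*, *Sctr*, *Pecam1* and *Pdgfrb* were named after their values were seen. So were *Myo7b*, *Eps8*, *Ezr*, *Espn*, *Alpi*, *Lct*, *Slc5a1*, *Treh*, *Atp4b*, *Chia1*, *Lipf*, *Gast* and *Ghrl*.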

Additional observations from a re-analysis of the deposited data

Results flagged for a closer look

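The effect of iEC co-culture differed between culture forms for *Muc13* and *Vil1*, by a test of the difference itself. For *Muc13* the difference of log2 fold changes, 3D minus 2D, was 1.19 (adjusted p = 0.00985, edgeR), with -1.21 in monolayers and -0.02 in 3D. This call was lost without the first 2D-iHE library (1.31, adjusted p = 0.0821) and without the second (1.14, adjusted p = 0.0759). For *Vil1* it was 0.62 (adjusted p = 0.00512), with -0.50 in monolayers and 0.12 in 3D, a call that held without any 1 of the 8 libraries. Both 2D-iHE libraries lay below both 2D-iH libraries for both genes. In 3D the libraries overlapped for *Muc13*, while for *Vil1* both iHEA libraries lay above both iHLO libraries. Of 18 groups of 4 libraries examined for a library far from the others, none held one.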

How the results depend on the processing

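*Gkn1*, *Gkn2*, *Muc13*, *Muc1* and *Vil1*, the 5 members that passed the filter in the 2D libraries alone, were called higher between 3D and 2D, between iHLOs and 2D-iHs and between iHEAs and 2D-iHEs under every alternative run, also with any 1 library left out. Over the 10 comparisons the count of members called stayed within 1.5 times in 123 of 128 settings. For the co-culture difference it was 2, became 4 without a filter, and ranged from 1 to 4 with 1 library left out; without the first or the second 2D-iHE library it was 1 and without the first iHEA library 4. Between iHEAs and iHLOs it ranged from 2 to 4. Between both livers it was 4 and fell to 2 with total counts alone, where *Tff3* reversed to -0.24. For single members, 26 values lost and 15 gained their call in the same direction. With a replicate block over numbered libraries, 3 members were called in the co-culture difference, *Gkn2* at 0.82 (adjusted p = 8.83e-05), and the same fit without the block, added after seeing the data, gave 0.80 (adjusted p = 0.00167); *Muc1* was called between 2D-iHs and Fib with the block (-0.59, adjusted p = 0.0299). The block ended no member's call. The number of all genes called between iHEAs and iHLOs was 303, against 617 with the block, 646 over the same libraries without it, 881 without a filter and 93 to 723 with 1 library left out. Between 2D-iHEs and 2D-iHs it was 1096, against 1945, 2002 and, with 1 library left out, 250 to 426. For the co-culture difference it was 421, against 772, 791, 901 without a filter and 129 to 959. The cause of these moves was not tested. Over 16 settings the gastric surface mucous list had 7 to 8 genes higher and the gastric gland list 5 to 7, while the hepatocyte list had 3 to 4 higher and 0 to 2 lower, genes that passed the filter only through 3D included. Depth limits *Tff1*, *Tff2* and *Gkn3*, whose counts per library were at most 11, 14 and 21.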

Other observations

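*Cblif*, which encodes gastric intrinsic factor, had 253 counts in the second iHLO library and 0 in the first iHLO library and both iHEA libraries, with at most 1 count in any monolayer. *Alb* had 210 counts in the first 2D-iH library and 2 to 20 in the other culture libraries.

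Between iHEAs and iHLOs, where 1.19% of all tested genes were higher and 1.07% lower, genes of the lists passed the test in both directions. Of 10 tested O-glycosylation genes 1 was higher, *Galnt3* (log2 fold change 0.85, SE 0.13, adjusted p = 0.0058, edgeR), with 23.8 and 22.5 CPM in iHLOs and 34.4 and 50.8 CPM in iHEAs. Of 5 tested goblet genes 1 was higher, *Agr2* (0.82, SE 0.18, adjusted p = 0.0361), at 11.8 and 11.9 against 16.6 and 25.8 CPM. Of 2 other mucins 1 was higher, *Muc4* (0.83, SE 0.17, adjusted p = 0.0239), at 57.7 and 50.5 against 73.0 and 122.6 CPM. Of 11 cholangiocyte genes 2 were higher, *Epcam* (0.58, SE 0.07, adjusted p = 0.00106) and *Sox9* (1.85, SE 0.33, adjusted p = 0.013), at 1.07 and 1.21 against 5.69 and 2.53 CPM. The gastric gland (1 of 7, *Aqp5*) and brush border lists (1 of 18, *Cdh17*) had 1 gene higher and none lower, and the gastric surface list had 1 of 8 higher, *Anxa10*, and 1 lower, *Psca*. Lower were also 3 of 5 tested endothelial genes, *Tie1* (-1.59), *Vwf* (-0.70) and *Tek* (-0.57), 1 of 6 hepatocyte genes, *Apoa1* (-0.42), and 1 of 5 fibroblast genes, *Col1a1* (-1.47). When each of the 4 libraries was left out, 10 of these 14 genes lost their call at least once, and *Epcam*, *Tek*, *Tie1* and *Vwf* kept it. Without the first iHLO library these were *Galnt3* (adjusted p = 0.0585), *Agr2* (0.248), *Muc4* (0.115), *Sox9* (0.15), *Aqp5* (0.308), *Cdh17* (0.39), *Anxa10* (0.297), *Psca* (0.05), *Apoa1* (0.176) and *Col1a1* (0.318). The same genes except *Psca* lost it without the second iHLO library, *Anxa10* also without the first iHEA library and *Col1a1* without the unnumbered one. Without the first iHEA library *Sox9* was at 1.12 and *Col1a1* at -2.20. The unnumbered iHEA library was the higher one for *Galnt3*, *Agr2* and *Muc4* and the lower one for *Sox9*, and the genes were named after their values were seen.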
